A study of Homo sapiens with 21 samples.

Results

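The enzymes of de novo purine synthesis were examined in HepG2 cells, a human hepatocellular carcinoma line, after 24 h of caffeine. The members are 10 genes of 37637 features in the count table, chosen by name for their place in the pathway and found by gene symbol. They are PRPS1, PPAT, GART, PFAS, PAICS, ADSL, ATIC, IMPDH1, IMPDH2 and GMPS. Caffeine was present at 0.01, 0.1, 1, 10, 100 or 1000 µM in serum-free DMEM, and the control cells received the same medium without it. Each of the 7 groups had 3 libraries, described by the submitters as biological replicates, which gives 21 libraries of poly(A)-selected RNA. All groups share 1 tumour line, the loss of serum for 24 h and trypsin harvest. The controls were therefore serum-deprived cells too.

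De novo synthesis builds the purine ring stepwise on a ribose phosphate, starting from phosphoribosyl pyrophosphate (PRPP) and ending at inosine monophosphate (IMP). IMP is then turned into guanine nucleotides by IMP dehydrogenase and GMP synthase, or into adenine nucleotides through adenylosuccinate. The liver is a main site of this synthesis, and proliferating tumour cells draw on it for DNA and RNA. Caffeine is itself a methylated xanthine, a purine base.

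At 1000 µM caffeine the pathway's transcripts did not move as a block. GART, GMPS and ATIC rose 1.43-fold, 1.35-fold and 1.21-fold over the control means, while IMPDH1, PAICS and IMPDH2 fell to 0.597, 0.804 and 0.839 of them. These 6 of 10 compare with 57.6% of all features that passed the test at this dose. At 100 µM GMPS, ATIC and PFAS were higher and none of the 10 was lower, against 46.6% of features. The libraries fall into 3 sets that partly follow dose, and in a fit with the set as a term only GART, IMPDH1 and PAICS remained called at 1000 µM. In that fit the log2 fold changes at 1000 µM were 0.36 for GMPS and -0.26 for IMPDH2, against 0.43 and -0.25 without the term, and 0.16 against 0.27 for ATIC. At 100 µM the fit called none of GMPS (0.37 against 0.47), PFAS (0.35 against 0.39) and ATIC (0.15 against 0.25), and it called PRPS1 higher. Its SE were wider, at 0.16 against 0.09 for GMPS at 100 µM. At 0.01, 0.1, 1 and 10 µM no member passed the test. In RNA from whole cultures, fewer cells of a type and less RNA per cell cannot be told apart.

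Levels are given as CPM, which are read counts scaled by TMM to a common library size. A difference was called at an adjusted p below 0.05 in edgeR's quasi-likelihood test over the 17951 features that passed the filter on low counts, and all 10 members passed it. Total counts ran from 23502519 to 44815552 per library. The 8 hepatocyte markers summed to between 34362 and 42629 CPM in the controls and between 27897 and 29266 CPM at 1000 µM. They did not move together, since 5 were called lower at 1000 µM, with ALB at 0.508 and AFP at 0.38 of control, and 2 higher, APOB 1.63-fold and TTR 1.38-fold. Over all features 57.6% were called at this dose (28.5% higher and 29.1% lower). With the set as a term 6 markers were lower and 2 higher, against 38% of features. Within set B, described below, 6 were lower and 2 higher between 10 and 1000 µM, against 60.1% of features. Of 6 markers of blood, fibroblast or endothelial cells, CD3E had no count, PTPRC, COL1A1, COL1A2 and VWF did not exceed 0.23 CPM, and CD68 reached 71.7 CPM. These 6 summed to between 40.9 and 55.2 CPM in the controls and between 18.4 and 46.0 CPM at 1000 µM, and the part of CD68-expressing cells or of the hepatocyte markers in any result here was not tested.

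The 3 sets of libraries were found by the relative levels of the mitochondrial mRNAs, and the labels name no batch that matches. Set A holds 11 libraries with 9.95% to 14.2% of counts on all genes of the mitochondrial genome. They comprise the control, 0.01 µM and 0.1 µM groups and the first 2 replicates of the 1 µM group. Set B holds 7 libraries with about 4.7% to 4.9%, made up of the last 1 µM replicate, the whole 10 µM group, the second 100 µM replicate and the first 2 replicates of the 1000 µM group. Set C holds the remaining 3 libraries, of which 100 µM gave numbers 1 and 3 and 1000 µM gave number 3. No control library lies in set B or C, so at 10, 100 and 1000 µM the effect of dose and of the set cannot be told apart by comparison with the controls alone. Values within 1 set and fits with the set as a term are therefore given with the members' results. Each list of pathway genes or regulators has its counts with the set term and within set B between 10 and 1000 µM. The 1 µM group is the only one with libraries in both set A and set B, so a set-term difference from control at 10, 100 or 1000 µM rests on its 3 libraries to link the sets. Set B holds 1 library at 100 µM and set C holds 1 at 1000 µM. A within-set comparison of these 2 doses therefore sets a single library, assumed to vary like the others, against 2.

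PPAT and PAICS, which encode the committing enzyme and a later one, lie head to head on chromosome 4 and are transcribed away from each other. In GRCh38 (GENCODE 29) PPAT spans chr4:56393362-56435615 on the minus strand and PAICS chr4:56435741-56464579 on the plus strand. The sequence between these 2 annotated starts is shown because the pair is transcribed outward from it. It was taken from the RefSeq promoter table (GRCh38.p14), lies at chr4:56435616-56435740 and is printed on the plus strand, with PPAT to its left and PAICS to its right.
PPAT-PAICS: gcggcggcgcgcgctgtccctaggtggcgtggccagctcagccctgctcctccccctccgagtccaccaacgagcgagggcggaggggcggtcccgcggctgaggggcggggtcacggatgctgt
These 125 bases are 76.0% G or C.

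The RefSeq table held at least 1 window, from 250 bases before to 50 after a RefSeq start, for 8 of the 10 members. The windows were searched on both strands for CACGTG, the E-box recognised by MYC and related factors, and for TGATGNAA, a letter pattern of elements bound by ATF4. CACGTG reads the same on both strands, and its last bases TG can also be the first of TGATGNAA. It occurred in 3 of the 8 members, PPAT, PAICS and ATIC, and in 8.78% of 27305 genes with a window. PPAT and PAICS share a single copy, and ATIC has a copy on each side of its start. TGATGNAA occurred in 0 of the 8 members and in 4.46% of genes. The 3 distinct copies are shown with 12 bases on each side, the motif in capitals. The first lies on the minus strand at chr4:56435780-56435809, and the other two on the plus strand at chr2:215312001-215312030 and chr2:215312076-215312105.
PPAT: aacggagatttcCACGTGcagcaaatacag
ATIC: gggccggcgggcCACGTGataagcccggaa
ATIC: ctcctacctgcgCACGTGgtgccgccgctg
Offsets are counted from the RefSeq starts, which for PPAT is the GENCODE start and for PAICS lies at chr4:56435752, downstream of the GENCODE start. The shared copy lies 182 bases before that PPAT start and 40 bases after that PAICS start. The ATIC copies lie 46 bases before and 29 bases after its RefSeq start. A match describes letters in the window and is not evidence of a bound site.

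PRPS1, on chromosome X (107628424 to 107651026, plus strand), makes the PRPP that feeds the pathway. It was at 43.4, 42.2 and 44.3 CPM in control replicates 1 to 3. It was at 47.5, 56.5 and 44.6 CPM at 100 µM and at 44.0, 46.6 and 33.7 CPM at 1000 µM. The 1000 µM libraries lay on both sides of the controls, and the lowest was the library of set C. PRPS1 differed from control by 0.20 ± 0.10 (log2 fold change ± SE) at 100 µM and by -0.06 ± 0.10 at 1000 µM, with adjusted p of 0.12 and 0.62. Under the set term these were 0.46 (adjusted p 0.015) and 0.08 (adjusted p 0.65). Between 100 and 1000 µM PRPS1 fell by 0.26 ± 0.10 on the log2 scale, with an adjusted p of 0.046. That call sits at the threshold. It is lost without replicate 2 at 100 µM (-0.15, adjusted p 0.24) or replicate 3 at 1000 µM (-0.14, adjusted p 0.22). It is also lost, at an adjusted p between 0.050 and 0.055, without control replicate 2, any 1 library at 0.01 or 10 µM, replicate 1 or 3 at 0.1 µM, or replicate 1 at 100 or at 1000 µM. The within-set values rest on those same libraries. Replicate 2 at 100 µM is the only one of its dose in set B (-0.32 ± 0.09, adjusted p 0.0090), and replicate 3 at 1000 µM the only one of its dose in set C (-0.45 ± 0.10, adjusted p 0.0021), so they add no separate evidence of a fall. Within set B between 10 and 1000 µM PRPS1 differed by -0.10 ± 0.07 (adjusted p 0.26).

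PPAT, the amidophosphoribosyltransferase that commits PRPP to purines, was at 63.6, 60.6 and 71.2 CPM in the controls. It was at 51.9, 62.1 and 52.6 CPM at 100 µM and at 68.4, 72.9 and 49.0 CPM at 1000 µM. At both doses the libraries of set C were the low ones and those of set B were near or above the controls. PPAT passed the test in none of the comparisons against control, between neighbouring high doses or within a set. Its difference at 1000 µM was -0.04 ± 0.11 on the log2 scale (adjusted p 0.81), and -0.10 with the set as a term (adjusted p 0.60). Without replicate 3 at 1000 µM, PPAT was 0.34 higher at 1000 than at 100 µM (adjusted p 0.0051), and at 100 µM it was -0.23 from control (adjusted p 0.032). Without replicate 2 at 100 µM that difference was -0.32 (adjusted p 0.045).

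GART carries 3 activities of the middle of the pathway in 1 protein, among them a step that takes a formyl group from folate. The gene lies on chromosome 21 (33503931 to 33543491, minus strand). GART stood at 117, 123 and 139 CPM in the controls and at 126, 122 and 127 CPM at 10 µM. It stood at 123, 140 and 121 CPM at 100 µM and at 182, 180 and 179 CPM at 1000 µM. The 3 libraries at 1000 µM lay close together and above all 18 others, although they belong to 2 sets. GART was higher by 0.51 ± 0.07 on the log2 scale against control (adjusted p 7.5e-06) and by 0.49 ± 0.07 against 100 µM (adjusted p 2.3e-05). The rise was present within set B against 10 µM (0.53 ± 0.07, adjusted p 2.9e-06) and within set C against 100 µM (0.55 ± 0.10, adjusted p 0.00023). Against control it was 0.62 with the set as a term (adjusted p 0.00059).

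PFAS, the synthase that adds a nitrogen from glutamine, was the lowest member per length in the controls. It was at 44.1, 41.7 and 30.1 CPM in the controls. It was at 46.7, 50.2 and 47.0 CPM at 10 µM, at 42.7, 61.2 and 48.2 CPM at 100 µM and at 38.1, 38.2 and 40.3 CPM at 1000 µM. Control replicate 3 was low, replicate 2 at 100 µM was high, and the 1000 µM libraries fell inside the control range. PFAS rose by 0.39 ± 0.13 on the log2 scale at 100 µM (adjusted p 0.020), a call that is lost without control replicate 3 (0.26, adjusted p 0.090) or 100 µM replicate 2 (0.23, adjusted p 0.15). It then fell by 0.39 ± 0.13 between 100 and 1000 µM (adjusted p 0.023), a call that is lost without 100 µM replicate 2 (-0.23, adjusted p 0.16) or without replicate 1 or 2 at 1000 µM (adjusted p 0.068 and 0.066). At 1000 µM against control the difference was 0.01 ± 0.13 (adjusted p 0.97). In the fit with the set as a term the 100 µM call is lost (0.35, adjusted p 0.34), and the fall from 100 to 1000 µM was called (-0.43, adjusted p 0.0084). Within set B the difference was -0.68 ± 0.16 (adjusted p 0.0018), but 100 µM replicate 2 is the only library of its dose there, so that value restates it. Within set C it was -0.18 ± 0.17 (adjusted p 0.49).

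PAICS, which joins a carboxylase and a synthetase in 1 protein, was the most abundant member in CPM in the controls, at 341, 350 and 427. It was at 355, 354 and 350 CPM at 10 µM, at 445, 394 and 441 CPM at 100 µM and at 284, 298 and 317 CPM at 1000 µM. The 1000 µM libraries were all below the controls and below every other library, while those at 100 µM overlapped control replicate 3. PAICS fell by 0.31 ± 0.09 on the log2 scale at 1000 µM against control (adjusted p 0.0042) and by 0.51 ± 0.09 against 100 µM (adjusted p 9.5e-05). Against 100 µM it fell by 0.44 ± 0.12 within set B (adjusted p 0.0050) and by 0.48 ± 0.12 within set C (adjusted p 0.0051). With the set as a term the log2 fold change from control was -0.40 (adjusted p 0.032). Between 10 and 100 µM PAICS rose by 0.27 ± 0.09 (adjusted p 0.020), but with the set as a term this was 0.17 (adjusted p 0.19). That call is lost without any 1 library at 10 µM or replicate 1 or 3 at 100 µM (0.24 to 0.27, adjusted p 0.052 to 0.081). At 100 µM against control PAICS was 0.19 ± 0.09 higher (adjusted p 0.072), and it passed without control replicate 3 (0.32, adjusted p 0.0038) or 100 µM replicate 2 (0.25, adjusted p 0.038).

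PAICS and its head-to-head neighbour PPAT did not keep 1 ratio. The ratio of PAICS to PPAT CPM was 5.71 ± 0.32 in the controls (SD, n = 3), 7.76 ± 1.23 at 100 µM and 4.90 ± 1.35 at 1000 µM. At 100 µM the 2 libraries of set C, at 8.56 and 8.38, lay above all others. The 1 of set B, at 6.35, exceeded the controls but not all low-dose libraries, which reached 6.35 at 0.01 µM and 6.79 at 1 µM. At 1000 µM the 2 libraries of set B, at 4.15 and 4.09, lay below every control and the 1 of set C, at 6.45, lay above them. No test was made on these ratios.

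ADSL, a lyase that acts both before IMP and in the conversion of IMP to AMP, was at 114, 121 and 115 CPM in the controls. It was at 127, 127 and 119 CPM at 10 µM and at 98.4, 105 and 119 CPM at 1000 µM. The library of set C at 1000 µM was within the control range and both of set B were below it. ADSL differed by -0.12 ± 0.07 on the log2 scale from control at 1000 µM (adjusted p 0.16), and without replicate 3 by -0.20 (adjusted p 0.023). Within set B it fell by 0.29 ± 0.07 between 10 and 1000 µM (adjusted p 0.0013), and from 100 to 1000 µM by 0.23 ± 0.09 (adjusted p 0.049). Within set C the difference from 100 to 1000 µM was 0.08 ± 0.09 (adjusted p 0.57), and with the set as a term the difference from control at 1000 µM was -0.16 (adjusted p 0.36). In the joint test over the 7 groups ADSL passed with an adjusted p of 0.019.

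ATIC, whose 2 activities add the last formyl group and close the ring to IMP, was at 213, 223 and 259 CPM in the controls. It was at 260, 254 and 256 CPM at 10 µM, at 268, 289 and 272 CPM at 100 µM and at 275, 279 and 285 CPM at 1000 µM. Both high doses lay above all 3 controls, of which replicate 3 was the closest. ATIC rose by 0.25 ± 0.08 at 100 µM (adjusted p 0.012) and by 0.27 ± 0.08 at 1000 µM (adjusted p 0.0056) on the log2 scale. The 100 µM call is lost without control replicate 1 (0.20, adjusted p 0.073). Neither call held with the set as a term, at 0.15 (adjusted p 0.51) and 0.16 (adjusted p 0.37), and within set B the change between 10 and 1000 µM was 0.11 ± 0.08 (adjusted p 0.25).

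**Figure D1:**
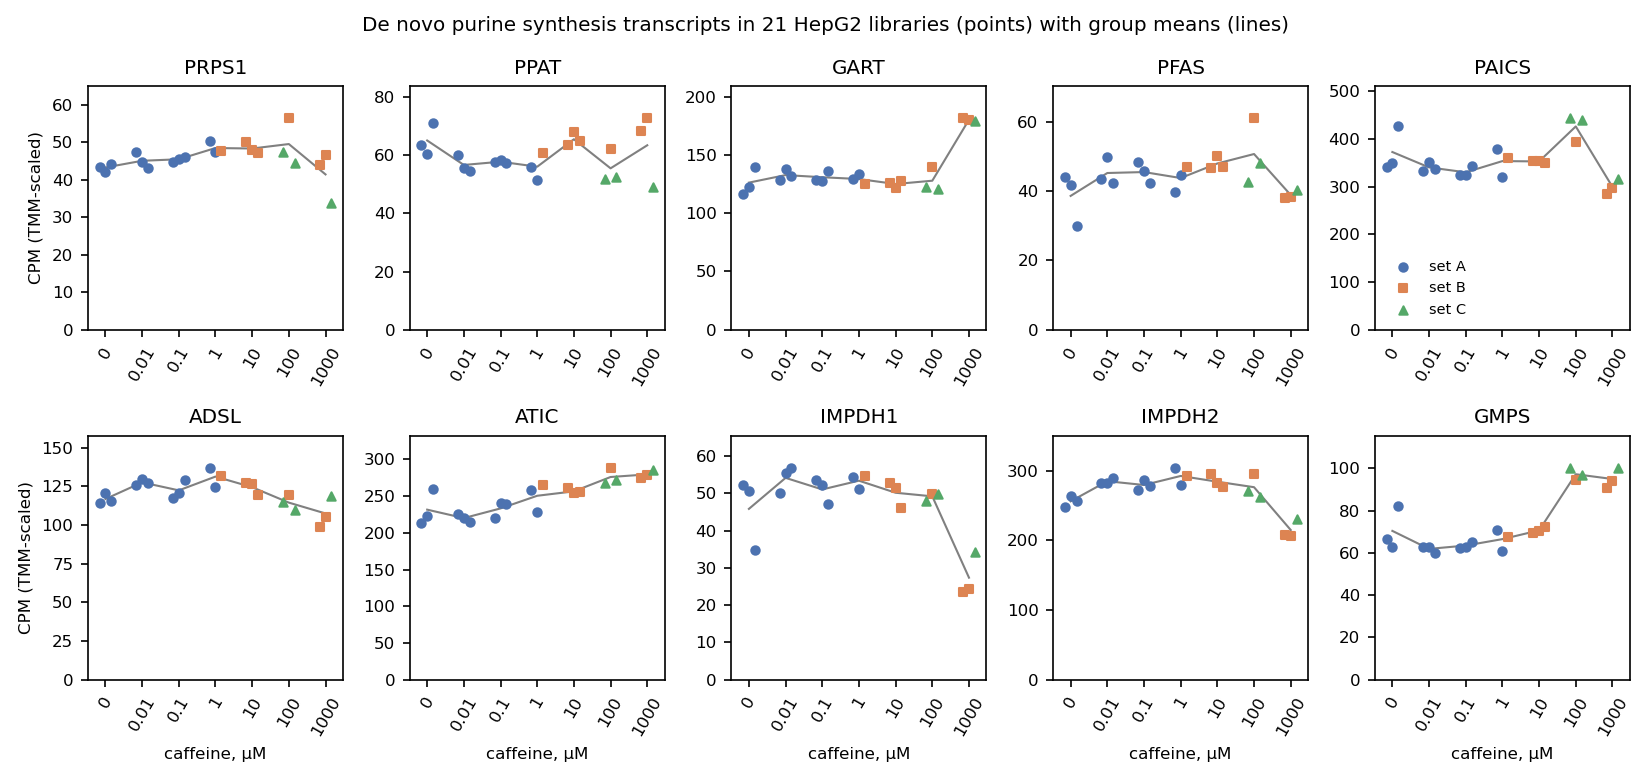
Level of each enzyme's transcript (vertical axis, CPM from 0) by caffeine dose (horizontal axis, µM, evenly spaced in rank order). Points are single libraries, marked by library set, and lines join group means. At 1000 µM GART lies above all other libraries at about 180 CPM, PAICS and IMPDH2 lie below all others, and GMPS is between 90.6 and 100 CPM at both high doses.

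At the branch to guanine nucleotides, both IMP dehydrogenase transcripts fell and that of the synthase rose at 1000 µM against control. At 100 µM GMPS rose, while IMPDH1 (0.10, adjusted p 0.57) and IMPDH2 (0.11, adjusted p 0.19) did not pass the test. Of these 3 only IMPDH1 was called at 1000 µM with the set as a term. IMPDH1 and IMPDH2 encode isoenzymes of IMP dehydrogenase, the rate-limiting step of this branch, and GMPS encodes the enzyme that aminates its product to GMP. IMPDH1 (chr7:128392277-128410252, minus strand) was at 52.2, 50.6 and 34.7 CPM in the controls, at 52.8, 51.5 and 46.1 CPM at 10 µM and at 48.0, 49.8 and 49.7 CPM at 100 µM. At 1000 µM IMPDH1 was at 23.5 and 24.3 CPM in set B and at 34.2 CPM in set C. The 1000 µM libraries were the 3 lowest of the 21, although control replicate 3 came within 1 CPM of the highest of them.

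IMPDH1 fell by 0.75 ± 0.14 on the log2 scale against control (adjusted p 0.00013) and by 0.85 ± 0.14 against 100 µM (adjusted p 6.3e-05). Within set B against 10 µM its log2 fold change was -1.07 ± 0.13 (adjusted p 8.2e-07). Against 100 µM the log2 fold change was -1.06 ± 0.16 within set B (adjusted p 3.5e-05) and -0.52 ± 0.17 within set C (adjusted p 0.034), and the difference between these was not tested. Against control it was -0.89 with the set as a term (adjusted p 0.0048).

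IMPDH2 (chr3:49024325-49029408, minus strand) was at 248, 264 and 256 CPM in the controls, at 295, 282 and 276 CPM at 10 µM and at 271, 295 and 263 CPM at 100 µM. At 1000 µM it was at 208, 206 and 230 CPM. Each library at 0.01 to 10 µM lay above every control, and every library at 1000 µM lay below every other library. None of the 4 lower doses passed the test for IMPDH2, with the smallest adjusted p of 0.13 at 10 µM. IMPDH2 fell by 0.25 ± 0.07 on the log2 scale at 1000 µM against control (adjusted p 0.0033) and by 0.36 ± 0.07 against 100 µM (adjusted p 0.00023). Against 10 µM in set B it fell by 0.46 ± 0.06 (adjusted p 5.4e-06). Within set C against 100 µM it was -0.21 ± 0.09 (adjusted p 0.078), and against control with the set as a term -0.26 (adjusted p 0.093).

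GMPS (chr3:155870536-155944026, plus strand) was at 66.5, 62.6 and 81.9 CPM in the controls and at 69.4, 70.4 and 72.1 CPM at 10 µM. It was at 100.0, 94.7 and 96.9 CPM at 100 µM and at 90.6, 93.8 and 100.3 CPM at 1000 µM. The 6 libraries of the 2 highest doses were the 6 highest of the 21, in set B as in set C. GMPS rose by 0.47 ± 0.09 on the log2 scale at 100 µM (adjusted p 0.00021) and by 0.43 ± 0.09 at 1000 µM (adjusted p 0.00026), and between these doses it differed by -0.03 ± 0.09 (adjusted p 0.78). It was 0.46 ± 0.09 higher at 100 than at 10 µM (adjusted p 0.00037), and 0.39 ± 0.09 higher at 1000 than at 10 µM within set B (adjusted p 0.0012). With the set as a term the differences from control were 0.37 (adjusted p 0.12) and 0.36 (adjusted p 0.066).

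The ratio of GMPS to IMPDH2 CPM was 0.275 ± 0.042 in the controls (SD, n = 3) and between 0.208 and 0.261 in all 12 libraries at 0.01 to 10 µM. It was 0.353 ± 0.028 at 100 µM and 0.442 ± 0.011 at 1000 µM. The 100 µM libraries lay above all 3 controls, of which the highest was 0.320, and the 1000 µM libraries lay above those. In set B alone the ratio was 0.236, 0.25 and 0.261 at 10 µM, 0.321 at 100 µM and 0.436 and 0.455 at 1000 µM. The ratio of GART to PAICS was 0.339 ± 0.012 in the controls and 0.603 ± 0.038 at 1000 µM, where its lowest library, at 0.564, exceeded the highest of the other 18, at 0.415. The ratio of IMPDH2 to IMPDH1 was 5.78 ± 1.40 in the controls and 8.01 ± 1.12 at 1000 µM, and control replicate 3, at 7.37, overlapped the 1000 µM libraries. These ratios are descriptions within a library, shared scaling cancels in them, and none was tested.

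**Figure D2:**
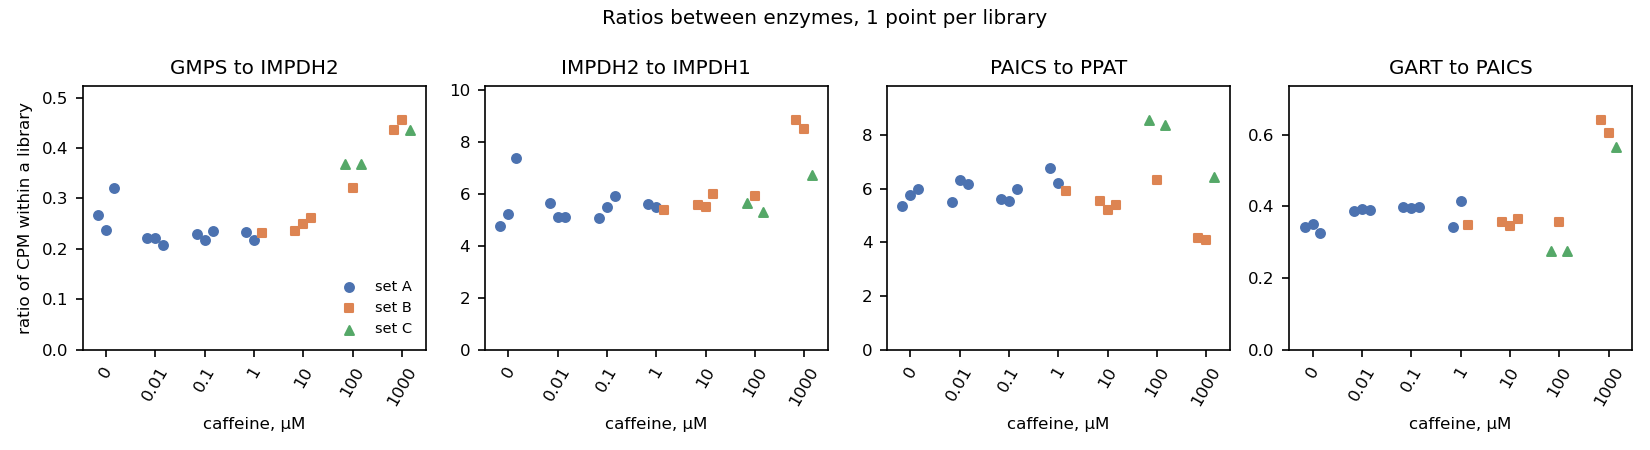
Ratios of CPM between 4 pairs of enzymes (vertical axes from 0) by caffeine dose (horizontal axes, µM, in rank order), with 1 point per library marked by library set. GMPS to IMPDH2 is above the controls at 100 µM and higher again at 1000 µM, and GART to PAICS stands apart at 1000 µM.

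Counted over the 10 members, the low doses gave no calls. The background share of features called in either direction was 0.0279%, 0%, 0.106% and 14.8% in rising order of these 4 doses. Members with a raw p below 0.05 numbered 2, 0, 2 and 2 of 10 in that order, against 15%, 9.48%, 15.7% and 30.8% of features. DESeq2's Wald test called 1 member at 1 µM and 1 at 10 µM, IMPDH2 both times, and none at the lower 2 doses. Of the 17951 features it called 2.19%, 0.284%, 2.37% and 18.1%, where a feature without an adjusted p counts as not called. At 100 µM 3 of 10 members were called, all higher, against 46.6% of features (23.6% higher and 22.9% lower). At 1000 µM 6 of 10 were called, 3 in each direction, against 57.6% of features (28.5% higher and 29.1% lower). The members' shares at 100 and 1000 µM are thus below and near the background, and their median log2 fold changes were 0.15 and -0.05 against -0.01 and -0.01 over all features.

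Members whose libraries did not overlap the controls numbered 3 of 10 at each dose up to 100 µM, against 23.1%, 19.2%, 17.3%, 39.8% and 51.1% of features in rising order of dose. At 1000 µM they numbered 6, against 56.6% of features. With the set as a term 1 member was called at 100 µM, PRPS1, against 17.3% of features. In that fit 3 were called at 1000 µM, GART, IMPDH1 and PAICS, against 38% of features. A fit holding the control and 1 dose group alone also called 1 member at 100 µM, GMPS, against 41% of the features it tested, and 3 at 1000 µM, GART, IMPDH1 and GMPS, against 50%.

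Between 100 and 1000 µM, which shares no control library with the rest, 6 of 10 members were called, GART higher and PRPS1, PFAS, PAICS, IMPDH1 and IMPDH2 lower, against 44.0% of features (21.8% higher and 22.3% lower). The median over the members was -0.18 and over all features 0.00 on the log2 scale. The same 6 genes were called with the set as a term, against 46.3% of features. Between 10 and 100 µM PAICS and GMPS were higher, 2 of 10 against 34.4% of features (17.8% higher and 16.6% lower).

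Within set B, 7 of 10 members were called between 10 and 1000 µM, GART and GMPS higher and PFAS, PAICS, ADSL, IMPDH1 and IMPDH2 lower, against 60.1% of features (29.7% higher and 30.4% lower). The median over the members was -0.19 and over all features 0.00. The PFAS call is lost without 10 µM replicate 2 or 1000 µM replicate 1 or 2, and the PAICS call without 1000 µM replicate 1. From 100 to 1000 µM, 7 of 10 were called within set B against 43.2% of features (20% higher and 23.2% lower), and 4 of 10 within set C against 26.4% (13.2% higher and 13.1% lower). Set C called GART higher and PRPS1, PAICS and IMPDH1 lower, and each of these was called in the same direction in set B. The PRPS1 calls in both sets, and that of PFAS in set B, rest on the single libraries named above.

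**Figure D3:**
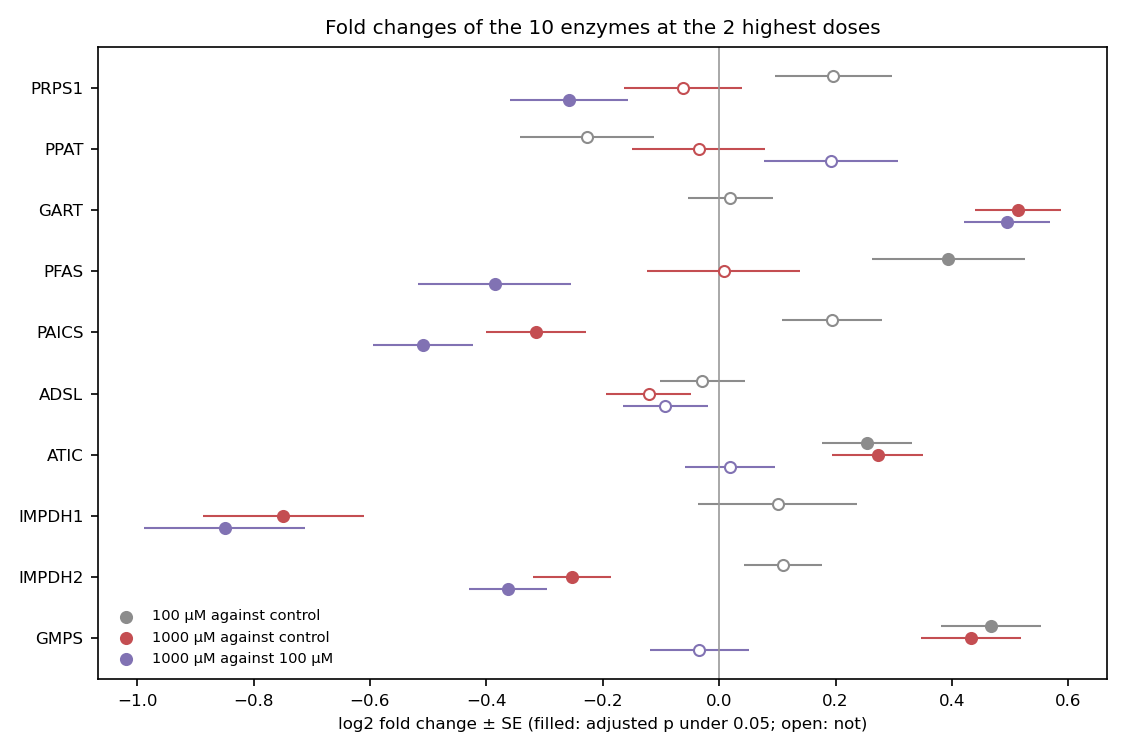
Log2 fold change with SE (horizontal axis) of each enzyme (vertical axis) at 100 and 1000 µM against control and at 1000 against 100 µM. Filled points passed an adjusted p of 0.05. GART is on the right and IMPDH1, PAICS and IMPDH2 on the left in both comparisons of 1000 µM.

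**Figure D4:**
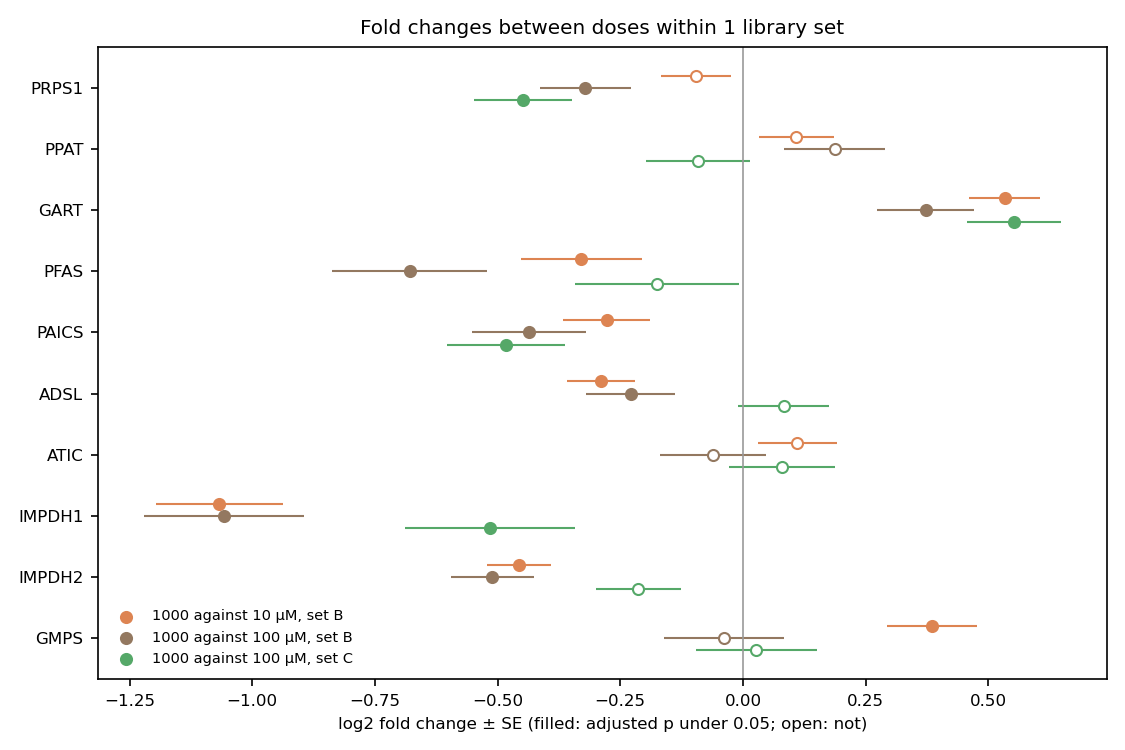
Log2 fold change with SE (horizontal axis) of each enzyme (vertical axis) between doses inside 1 library set, with filled points past an adjusted p of 0.05. GART is higher and IMPDH1 and PAICS are lower at 1000 µM in all 3 comparisons, and IMPDH1 lies near -1.06 in both of set B and at -0.52 in set C.

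In the joint test over the 7 groups 7 of 10 members passed, against 73.6% of features, and PRPS1, PPAT and PFAS did not. On dose rank, with the control as 0, 4 of 10 members had a slope, against 55.3% of features (29.6% upward and 25.7% downward). GMPS rose by 0.10 ± 0.02 (log2 per rank, adjusted p 0.00023), ATIC by 0.06 ± 0.01 (adjusted p 0.00039) and GART by 0.05 ± 0.02 (adjusted p 0.016), and IMPDH1 fell by 0.08 ± 0.03 (adjusted p 0.044). ATIC's mean was 232 CPM in the controls and 220, 233, 250.5, 257, 276 and 280 CPM at the 6 doses in rising order. The means of GART and IMPDH1 up to 100 µM, controls included, stayed between 125 and 133 CPM and between 45.8 and 54.1 CPM. GART's slope is lost without any 1 library at 1000 µM (0.04, adjusted p 0.061 to 0.066). IMPDH1's is lost without control replicate 1, any 1 library at 0.01 or 1000 µM, or replicate 1 or 2 at 0.1 µM (-0.09 to -0.06, adjusted p 0.052 to 0.14). No member's slope passed with the set as a term, in a fit that called 4.27% of features.

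Per kb of exon the controls ranked IMPDH2 highest at 92.3 ± 2.80 CPM per kb (SD, n = 3), then ATIC at 59.0 ± 6.28 and PAICS at 49.6 ± 6.25. ATIC and PAICS overlapped. PRPS1, ADSL and GART followed at 16.5, 16.4 and 16.3 CPM per kb and overlapped each other. IMPDH1 at 12.5 and PPAT at 11.97 CPM per kb overlapped too, above GMPS at 7.92 and PFAS at 5.97 CPM per kb. The counting tool is not given in the sources used here, so reads shared by IMPDH1 and IMPDH2, by PRPS1 and PRPS2, or with pseudogene copies may have been split or dropped. The lengths are of all annotated exons in GENCODE 29, which may not be the annotation used for counting. IMPDH2 exceeded its isoenzyme IMPDH1 in level per kb in every group, and at 1000 µM the means were 77.5 and 7.47 CPM per kb.

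Over the 21 libraries the members did not share 1 pattern. On log2 CPM the correlation of IMPDH1 with IMPDH2 was 0.91 and of ATIC with GMPS 0.86, whereas GART had -0.87 with IMPDH1 and -0.76 with IMPDH2. These points share libraries, doses and sets, so they are a description. Against the mean of the other members r ran from -0.55 for GART to 0.60 for PRPS1. Outside the pathway, SPR (0.90), HAUS4 (0.90), VPS33B (0.88), PGK1 (0.87) and ACAA2 (0.87) had the patterns most like the members' mean, by Pearson r over 21 libraries among 10840 genes.

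The other lists are read against the same shares of features called, which were 14.8%, 46.6% and 57.6% for the 10, 100 and 1000 µM groups against control and 44.0% for 1000 against 100 µM. In the fit with the set term they were 0.0279%, 17.3%, 38% and 46.3%, and within set B 60.1% were called between 10 and 1000 µM.

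Genes that supply PRPP or take IMP to AMP had 3 of 5 called at 1000 µM, near the share of all features. Of 5 tested, 0 were called at 10 µM, 3 were higher at 100 µM, and 2 were higher and 1 lower at 1000 µM. From 100 to 1000 µM 2 were higher and 1 lower. Under the set term 0 were called at 10 µM, 2 were higher at 100 µM, and 1 was higher and 1 lower at 1000 µM. That fit called all 5 between 100 and 1000 µM, 2 higher and 3 lower. Within set B 3 were higher and 2 lower at 1000 than at 10 µM. PRPSAP1, a regulatory partner of PRPP synthetase, was at 99.3, 103 and 104 CPM in the controls and at 172, 165 and 167 CPM at 1000 µM, a rise of 0.72 ± 0.06 on the log2 scale (adjusted p 3.9e-09). PRPS2, the isoenzyme of PRPS1, went from 12.4, 12.1 and 13.7 CPM in the controls to 18.03, 17.5 and 18.5 CPM at 100 µM and 10.2, 9.39 and 8.91 CPM at 1000 µM. Its groups did not overlap, and it was -0.42 ± 0.09 from control at 1000 µM (adjusted p 0.00052). ADSS1, an adenylosuccinate synthase, rose by 0.43 ± 0.09 at 100 µM (adjusted p 0.00062) and by 0.21 ± 0.09 at 1000 µM (adjusted p 0.047). Under the set term these were 0.54 ± 0.15 (adjusted p 0.016) and 0.27 ± 0.14 (adjusted p 0.15), so the second call was lost with a wider SE and not with a smaller difference.

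The folate, one-carbon and serine genes, which provide the formyl groups used by GART and ATIC and the glycine of the ring, had 13 of 14 called at 1000 µM, against 57.6% of features. Of 14 tested of 15, 5 were higher at 10 µM, 8 were higher and 2 lower at 100 µM, and 9 were higher and 4 lower at 1000 µM. At 1000 against 100 µM 6 were higher and 4 lower. Under the set term 0 were called at 10 µM, 3 were higher and 1 lower at 100 µM, and 8 were higher and 5 lower at 1000 µM. It gave 7 higher and 5 lower between 100 and 1000 µM. Within set B 8 were higher and 5 lower at 1000 than at 10 µM. MTHFD2, a mitochondrial folate enzyme, was at 204, 197 and 211 CPM in the controls, at 209, 228 and 209 CPM at 100 µM and at 787, 816 and 680 CPM at 1000 µM. The 1000 µM libraries stood apart from the rest, and MTHFD2 rose by 1.90 ± 0.08 on the log2 scale (adjusted p 1.0e-12) and by 1.79 within set B against 10 µM. SHMT1, the cytosolic serine hydroxymethyltransferase, went from 80.8, 84.6 and 68.9 CPM in the controls to 20.5, 20.3 and 25.4 CPM at 1000 µM, with a log2 fold change of -1.83 ± 0.09 (adjusted p 4.9e-12). PSAT1, of serine synthesis, was at 219, 213 and 237 CPM in the controls, at 391, 335 and 395 CPM at 100 µM and at 553, 575 and 648 CPM at 1000 µM, a rise of 1.41 ± 0.11 (adjusted p 1.9e-09).

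Salvage enzymes, which rebuild nucleotides from free bases and nucleosides, had 3 of 5 called at 100 µM, against 46.6% of features, and 1 of 5 at 1000 µM, against 57.6%. Of 5 tested, 1 was higher at 10 µM, 3 at 100 µM and 1 at 1000 µM, none was lower against control, and 3 were lower between 100 and 1000 µM. Adding the set term, 0 were called at 10 and at 100 µM, and at 1000 µM 0 were higher and 1, APRT, was lower (-0.79, adjusted p 0.020). That fit had 2 lower and 0 higher between 100 and 1000 µM. Within set B 1 was higher and 2 were lower at 1000 than at 10 µM. DCK, deoxycytidine kinase, was at 18.8, 18.4 and 22.9 CPM in the controls and at 27.9, 28.4 and 30.4 CPM at 1000 µM. At 1000 µM DCK rose by 0.53 ± 0.12 on the log2 scale (adjusted p 0.00063), and with the set as a term by 0.24 (adjusted p 0.29). Its highest mean was at 100 µM, at 36.5 CPM (29.3 to 41.0) or 1.82-fold of control. At 0.01, 0.1 and 1 µM its means were 0.843, 0.818 and 0.827 of control.

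Enzymes that interconvert or break down purine nucleotides had 5 of 10 called at 100 µM, near the 46.6% of all features, and 9 of 10 at 1000 µM, against 57.6%. Of 10 tested of 13, 1 was higher and 1 lower at 10 µM, 2 were higher and 3 lower at 100 µM, and 4 were higher and 5 lower at 1000 µM. From 100 to 1000 µM 4 were higher and 4 lower. Adding the set term, 0 were called at 10 µM, 1 was higher and 0 lower at 100 µM, and 3 were higher and 5 lower at 1000 µM. Between 100 and 1000 µM 5 were higher and 4 lower in that fit. Within set B 3 were higher and 5 lower at 1000 than at 10 µM. GUK1, the kinase that takes GMP to GDP, fell from 38.3, 43.6 and 38.3 CPM in the controls to 16.3, 15.4 and 17.3 CPM at 1000 µM, with a log2 fold change of -1.29 ± 0.13 (adjusted p 8.6e-08). AMPD2, an AMP deaminase that returns AMP to IMP, fell from 68.8, 63.9 and 48.7 CPM to 27.3, 30.1 and 37.0 CPM (-0.95 ± 0.12, adjusted p 9.8e-07). Its isoenzyme AMPD3 rose from 0.73, 0.65 and 0.84 CPM to 2.73, 2.98 and 2.03 CPM (1.80 ± 0.23, adjusted p 1.6e-06). The 3 genes had no overlap between control and 1000 µM, and each was called in the same direction within set B against 10 µM.

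Of 7 regulators listed with the pathway, 1 was higher and 2 lower at 10 µM and at 100 µM, and 4 were higher and 1 lower at 1000 µM. At 1000 against 100 µM 5 were higher and 1 lower. The shares of features called were 14.8%, 46.6%, 57.6% and 44.0%. Adding the set term, 0 were called at 10 µM, 1 was higher and 0 lower at 100 µM, and 4 were higher and 1 lower at 1000 µM. At 1000 against 100 µM the term gave 6 higher and 1 lower. Within set B 5 were higher and 1 lower at 1000 than at 10 µM. ATF4, a transcription factor of the amino acid response, was at 429, 474 and 444 CPM in the controls, at 490, 569 and 422 CPM at 100 µM and at 1042, 1108 and 884 CPM at 1000 µM (1.17 ± 0.10, adjusted p 1.0e-08). MYC was at 176, 197 and 167 CPM in the controls and at 240, 239 and 305 CPM at 1000 µM (0.54 ± 0.13, adjusted p 0.0014). At 10 and 100 µM every library of MYC lay below every control, with means of 139 and 144 CPM, or 0.774 and 0.803 of control. E2F1, a cell-cycle transcription factor, was at 13.4, 15.8 and 12 CPM in the controls, at 34.7, 42.1 and 36.1 CPM at 100 µM and at 8.83, 8.11 and 10.4 CPM at 1000 µM (-0.60 ± 0.13, adjusted p 0.00080). For E2F1 the 100 µM libraries were the high ones and the 1000 µM libraries the low ones.

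**Figure D5:**
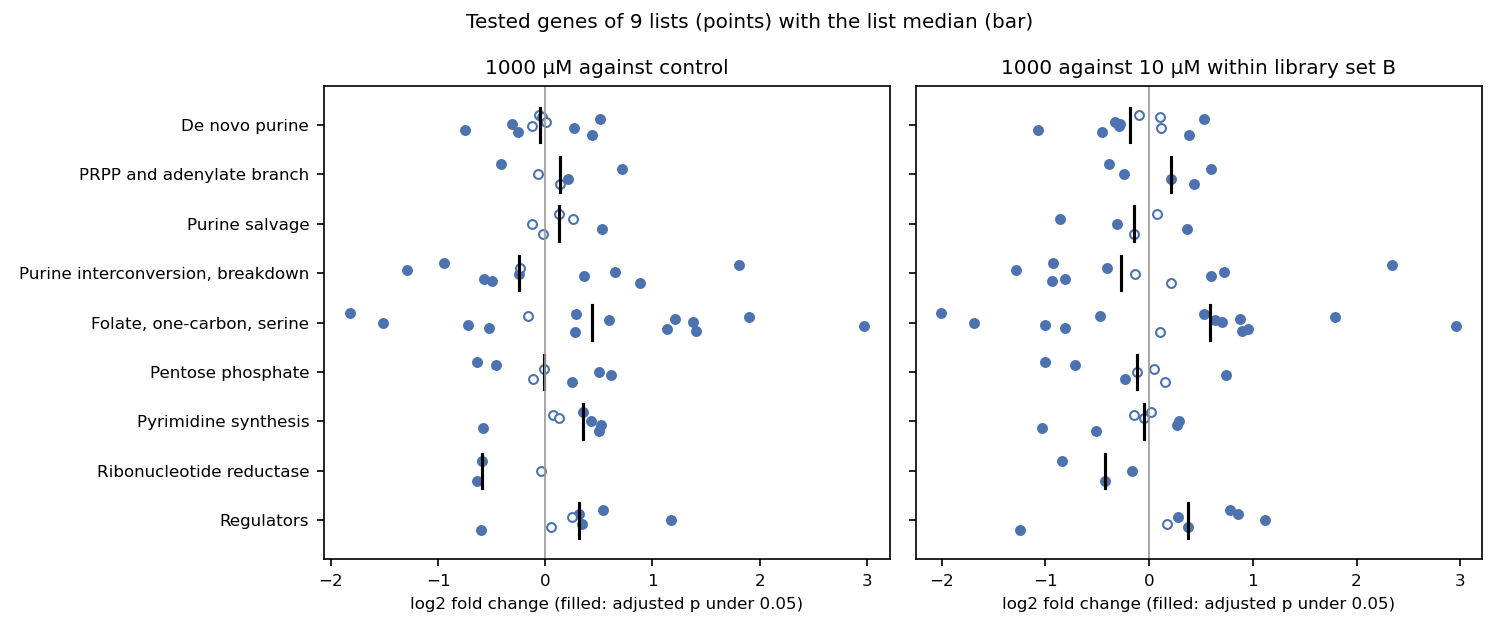
Log2 fold change (horizontal axes) of the tested genes of 9 lists (vertical axis), at 1000 µM against control on the left and at 1000 against 10 µM within set B on the right. Filled points passed an adjusted p of 0.05 and bars are list medians. The de novo enzymes lie on both sides of 0, and the folate, one-carbon and serine genes spread from SHMT1 at -1.83 to beyond MTHFD2 at 1.90 on the left.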

How the data were processed

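Gene-level read counts of 21 libraries were used as deposited, as whole numbers without normalization. HISAT2, DESeq2 and GRCh38 are named in the submitters' processing notes. The counting tool, annotation release, use of strand and read filters are not given in the sources used here. A further 21 per-sample columns were not used. Groups came from the doses in the sample titles, and symbols were matched by Ensembl identifier for 32264 of 37637 features.

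Features were filtered with filterByExpr by group (17951 kept), scaled by TMM, and compared by the 2-sided quasi-likelihood F-test with robust dispersion of edgeR 4.0.16 (R 4.3.3). All 21 libraries entered 1 fit with a mean per group, and p-values were adjusted by the Benjamini-Hochberg method over the 17951 features at a threshold of 0.05. The SE is the absolute log2 fold change over the square root of F. The slope used dose rank. The 3 library sets came from hierarchical clustering (average linkage) of the mitochondrial mRNAs' centred log2 counts, and within-set contrasts used a mean for each combination of group and set. Log2 CPM for correlations used a prior count of 2.

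The members and lists were chosen with earlier results of these data known, and so were the sets. All 10 members are named, and for each other list up to 3 called genes with the smallest p at 1000 µM against control. Features named as most alike carried a symbol and averaged 5 CPM or more. Coordinates and exon lengths came from GENCODE 29, and sequences from RefSeq (GRCh38.p14).

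Replicate numbers showed no pairing of the libraries: in 0 of 21 pairs of groups were all correlations of same-numbered deviations over 0.1. Deviations in groups that span sets also hold the difference between sets, so this check cannot exclude pairing. No replicate pair matched within counting noise (chi-square per feature of at least 3.59). Control replicate 3 stood apart from control replicates 1 and 2 over all features, at 50.9 and 42.0. Between control replicates 1 and 2 the value was 9.76, and all 3 controls lie in set A. It reached 162.5 between 100 µM replicates 1 and 2, which lie in different sets. If the replicates were not separate cultures, p-values measure only the spread between these libraries. In counts simulated for 1000 µM against control over 17951 features, 7, 26, 44 and 45 of 50 genes were recovered at 1.25-, 1.5-, 2- and 3-fold, with 3 false calls. Alternatives were DESeq2 size factors, DESeq2 1.42.0, no filter, a minimum mean of 5 CPM, a replicate block, the set as a term, only the groups compared, log10 dose, and each library left out.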

Additional observations from a re-analysis of the deposited data

How the results depend on the processing

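The tally covers members' values called in the main fit or under any alternative, counted once per setting. It takes 10, 100 and 1000 µM against control, the neighbouring steps between these doses, the slope, and set B between 10 and 1000 µM. The 0.01, 0.1 and 1 µM groups and the joint test are left out of it. Under settings other than leaving out a library, 225 kept their direction and side of the threshold. A further 23 lost their call, 3 gained one and 1 reversed. Leaving out 1 library at a time gave 726, 40, 10 and 1. PRPS1 between 10 and 100 µM ranged from -0.073 (without 100 µM replicate 2) to 0.11 with 1 library left out, and PPAT there was 0.013 with the set as a term. The causes were not tested. The count of the 10 members called was 1 at 1 µM and 1 at 10 µM with DESeq2's Wald test, which called 2.37% and 18.1% of all features. With the set as a term it was 1 at 100 µM, 3 at 1000 µM and 0 for the slope, against 17.3%, 38% and 4.27% of features. With only the groups compared in the fit it was 1 at 100 µM and 3 at 1000 µM, against 41% and 50%. Without a filter it was 1 between 10 and 100 µM, against 14.1%. With 1 library left out it ranged from 0 to 0 at 0.01, 0.1 and 1 µM and from 0 to 1 at 10 µM, with 1 (ATIC, 0.24, adjusted p 0.042) without control replicate 3. It ranged from 2 to 5 at 100 µM (5 without 1000 µM replicate 3), from 6 to 7 at 1000 µM, from 4 to 6 between 100 and 1000 µM, and from 1 to 3 between 10 and 100 µM (1 without any 10 µM library or 100 µM replicate 1 or 3). It ranged from 6 to 8 in the joint test, from 2 to 4 for the slope (2 without any 1000 µM library) and from 5 to 7 within set B. With 1 library left out the share of all features called ranged from 5.63% to 19.1% at 10 µM, from 38.6% to 49.4% at 100 µM, from 50.4% to 59.4% at 1000 µM, from 34.3% to 50.7% between 100 and 1000 µM and from 24.1% to 38.3% between 10 and 100 µM. It ranged from 67.4% to 76.9% in the joint test, from 49.8% to 57.1% for the slope and from 49.5% to 62.4% within set B. Under the replicate block, 3 members were called at 100 µM, 6 at 1000 µM, 6 between 100 and 1000 µM and 7 within set B, the same as without it, and 3 for the slope (IMPDH1 adjusted p 0.059), against 45.1%, 56.6%, 42.7%, 59.1% and 53.3% of features. The numbers do not pair the libraries. The simulation recovered few changes of its smallest size, but it changed few features, drawn over a wide range of levels. It therefore does not give the rate at which changes in these members would be called. A member without a call may still differ.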

Other observations

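Pyrimidine synthesis, ribonucleotide reductase and the pentose phosphate pathway were measured beside the purine enzymes. Over all features 14.8% were called at 10 µM, 46.6% at 100 µM (23.6% higher), 57.6% at 1000 µM (28.5% higher) and 44.0% at 1000 against 100 µM. With the library set as a term these were 0.0279%, 17.3%, 38% and 46.3%, and within set B 60.1% were called between 10 and 1000 µM. For the 7 pyrimidine synthesis genes, 2 were higher at 10 µM, all 7 were higher at 100 µM, and 4 were higher and 1 lower at 1000 µM, with medians of 0.28, 0.48 and 0.36 on the log2 scale. At 1000 against 100 µM 2 were lower and 0 higher. In the set-term fit 0 were called at 10 µM, 2 were higher at 100 µM, and 0 were higher and 1 lower at 1000 µM, with 3 lower between 100 and 1000 µM. Within set B 2 were higher and 2 lower at 1000 than at 10 µM. TYMS, thymidylate synthase, went from 100, 101 and 91.0 CPM in the controls to 176, 189 and 176 CPM at 100 µM and 62.2, 63.8 and 68.7 CPM at 1000 µM, and its groups did not overlap (-0.59 ± 0.09 at 1000 µM against control, adjusted p 1.2e-05). CTPS2 and CTPS1, the CTP synthases, rose by 0.52 ± 0.09 (adjusted p 0.00011) and by 0.43 ± 0.08 (adjusted p 0.00021) at 1000 µM. With the set as a term these were 0.37 for CTPS2 (adjusted p 0.068) and 0.26 for CTPS1 (adjusted p 0.13).

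The ribonucleotide reductase subunits, which make deoxynucleotides, had 1 of 3 higher at 10 µM, 2 higher and 1 lower at 100 µM, and 0 higher and 2 lower at 1000 µM. Between 100 and 1000 µM 2 were lower. In the set-term fit 0 were called at 10 µM, and the counts at 100 µM, at 1000 µM and between them were the same. Within set B all 3 were lower at 1000 than at 10 µM. RRM1, the large subunit, was at 50.3, 52.4 and 57.1 CPM in the controls, at 84.6, 93.3 and 86.3 CPM at 100 µM and at 34.9, 35.2 and 36.3 CPM at 1000 µM (-0.59 ± 0.07 at 1000 µM, adjusted p 1.6e-06). RRM2B, a small subunit induced by p53, fell by 0.83 ± 0.12 at 100 µM (adjusted p 1.0e-05) and by 0.64 ± 0.11 at 1000 µM (adjusted p 9.4e-05). Its means at 0.01, 0.1 and 1 µM were 0.738, 0.789 and 0.787 of control, and at 10 µM 0.939. None of these 4 doses passed the test (adjusted p 0.13, 0.37, 0.17 and 0.62), but with the set as a term RRM2B was called lower at 0.01 µM (-0.44, adjusted p 0.021) and at 1 µM (-0.44, adjusted p 0.043), where that fit called 3.02% and 0.629% of features. Of the 7 pentose phosphate genes, which supply ribose 5-phosphate, 1 was higher at 10 µM, 3 at 100 µM, and 3 were higher and 2 lower at 1000 µM. Between 100 and 1000 µM 1 was higher and 1 lower. In the set-term fit 1 was higher at 0.01 µM, 0 were called at 10 and at 100 µM, 1 was higher and 0 lower at 1000 µM, and 1 was higher and 1 lower between 100 and 1000 µM. Within set B 1 was higher and 3 were lower at 1000 than at 10 µM. At 1000 µM RPE rose by 0.61 ± 0.08 (adjusted p 3.1e-06), RPIA by 0.50 ± 0.13 (adjusted p 0.0027) and TALDO1 by 0.25 ± 0.08 (adjusted p 0.0091). With the set as a term RPE was at 0.50 (adjusted p 0.0094), while RPIA was at 0.02 and TALDO1 at 0.15 (adjusted p 0.95 and 0.40).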
